A study of Mus musculus with 42 samples.

Results

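Cish, Socs1, Socs2 and Socs3, the cytokine-inducible members of the suppressor of cytokine signalling (SOCS) family, are described here across T cell type, setting and time. Their rows were found in the deposited array table by the gene symbol of the platform. Where a symbol had several transcript clusters, the sets of short probes that each give 1 value, the cluster with the highest mean was used. This gave 4 genes of the 19752 with a symbol.

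The series followed CD4+ T cells of NOD mice, which are prone to autoimmune diabetes, after stimulation with KT3, an antibody against the CD3 part of the T cell receptor. The animals carried a green fluorescent protein reporter of Foxp3 (Foxp3-IRES-GFP, given as Foxp3-IREs-GFP+/+ for the cultures), which marks regulatory T cells (Treg) and leaves conventional CD4+ T cells (Tconv) dark. In vivo, KT3 was injected into a vein and spleen cells of females aged 8 weeks were sorted as CD4+ cells free of B220, CD8a, CD11b and CD11c, with or without GFP. In vitro, spleen cells were cultured with KT3 at 1.25 µg/ml. Arrays were made of Treg and of Tconv at 0, 2, 8, 24 and 72 h, with 2 arrays for each of these 20 groups, and at 24 h after rat IgG in vivo, with 1 array for each cell type. This made 42 arrays in 22 groups. The in vivo 0 h samples came from untreated animals. The in vitro 0 h samples are labelled as cultures with KT3 for 0 h. In culture the arrays numbered 1 came from females of 9 weeks and those numbered 2 from males of 14 weeks, which ties the number to sex and age. The labels do not say whether both arrays of a group stem from different mice. The p-values cover no more than the spread between these arrays, possibly a technical one.

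Cytokines such as interleukin-2, interleukin-6 and interferon gamma bind receptors that carry Janus kinases (JAK), which phosphorylate STAT transcription factors. STAT factors switch on the SOCS genes, whose products bind the activated receptor or kinase through an SH2 domain and recruit a ubiquitin ligase through their SOCS box, which closes a negative feedback loop. Cish and Socs2 are known as targets of STAT5, the main STAT below interleukin-2, on which Treg depend through their high-affinity interleukin-2 receptor. Socs1 and Socs3 also carry a short region that inhibits the kinase. Socs1 restrains interferon gamma and interleukin-2 family signals, and Socs3 acts on gp130, the shared receptor chain of the interleukin-6 family.

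The promoters of Cish, Socs1 and Socs3 are shown because STAT factors act there, and because Cish and Socs1 varied most alike among the members. RefSeq (build GRCm38.p6) gave 300 bases, 250 before to 50 after the gene's start, for 3 of the 4 members. Capitals mark TTCNNNGAA, the palindrome that STAT factors are known to bind, in Cish and Socs3, and GAAA, any 2 bases and GAAA, the element of interferon-regulated genes, in Socs1. Cish lies at chr9:107296409-107296708 on the plus strand, Socs1 at chr16:10785487-10785786 and Socs3 at chr11:117969317-117969616, both on the minus strand.
Cish: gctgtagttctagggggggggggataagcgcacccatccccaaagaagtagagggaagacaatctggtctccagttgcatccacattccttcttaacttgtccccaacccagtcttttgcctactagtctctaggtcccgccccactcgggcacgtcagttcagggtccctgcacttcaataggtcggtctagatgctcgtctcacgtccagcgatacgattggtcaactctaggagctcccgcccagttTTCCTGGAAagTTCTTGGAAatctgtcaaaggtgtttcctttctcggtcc
Socs1: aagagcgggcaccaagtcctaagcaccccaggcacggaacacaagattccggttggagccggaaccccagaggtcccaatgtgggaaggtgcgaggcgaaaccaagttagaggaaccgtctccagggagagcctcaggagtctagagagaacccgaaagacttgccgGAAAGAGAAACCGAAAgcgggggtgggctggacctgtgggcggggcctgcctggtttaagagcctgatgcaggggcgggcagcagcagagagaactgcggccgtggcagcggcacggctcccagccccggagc
Socs3: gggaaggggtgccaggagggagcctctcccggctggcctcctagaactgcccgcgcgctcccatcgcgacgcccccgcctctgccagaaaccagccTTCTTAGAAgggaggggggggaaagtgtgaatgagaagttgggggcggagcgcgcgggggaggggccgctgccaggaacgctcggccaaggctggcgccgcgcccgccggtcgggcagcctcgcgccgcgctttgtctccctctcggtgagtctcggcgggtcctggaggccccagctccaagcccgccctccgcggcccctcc
The Cish sequence holds TTCCTGGAA at bases 1 to 9 and TTCTTGGAA at bases 12 to 20 after the start, the Socs3 sequence TTCTTAGAA at bases -154 to -146. In Socs1, GAAAGAGAAA at -83 to -74 and GAAACCGAAA at -77 to -68 overlap. TTCNNNGAA reads the same on both strands and was present in 8.3% of 32851 promoters of this length, and 2 or more copies in promoters of 0.54% of 27025 genes. The Socs1 element, searched on both strands and chosen after the Socs1 sequence had been read, was present in 3.44%. The wider spacing, TTC and GAA with 4 bases of any kind between them, was present in 6.95% and in none of these 3. A match is a description of letters, not a site.

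Values below are log2 of the deposited intensities, and differences are log2 differences ± standard error (SE) from limma, fitted to all 42 arrays with n = 2 arrays per group. A difference was called where p, adjusted by Benjamini-Hochberg over the 12425 genes tested, was under 0.05. The share of all tested genes called in the same comparison (either direction unless said) is its background. It stands beside the call or beside an earlier call of the same comparison. Backgrounds come from the fit to all 42 arrays, so calls and counts given without some arrays have none of their own. Fits on the number 2 arrays alone leave out the in vivo arrays numbered 1 and keep both numbers in vitro. Each in vivo group then holds 1 array, and the spread comes from the in vitro pairs. Calls kept or lost in those fits therefore do not measure the spread in vivo. Of the members, 4 of 4 passed the filter on dim genes. Socs2 passed through 22 arrays, all 21 Treg arrays and 1 Tconv array at 72 h in vivo, since on the other Tconv arrays it lay below the array median. Differences from 0 h in 1 cell type and setting share their 0 h arrays. Since probes differ in how brightly they bind, no level is compared between genes. The members' differences kept their sign under quantile normalization and median centring wherever they were called, but some calls were lost. Quantile normalization ended that of Cish between the cell types at 2 h in vivo (0.82, adjusted p = 0.0672). Median centring ended that of Cish from 2 to 8 h in Tconv in vivo (-0.61, adjusted p = 0.118). It also ended those of Socs3 in Treg at 2 h in vivo (1.04, adjusted p = 0.0503) and Socs1 between settings in Treg at 2 h (1.31, adjusted p = 0.0608). Other such losses stand with their results. In bulk samples, fewer cells with a transcript and less transcript per cell cannot be told apart.

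Foxp3 lay between 11.30 and 12.34 in Treg and between 7.02 and 8.20 in Tconv. It was high in the cultured Treg too, although 1 of their labels gives a GFP negative gate. In vivo, the mean over 30 measured markers of other cell types, dim ones included, was higher on the array numbered 1 in 10 of 10 pairs of arrays, at 6.26 to 7.21 on number 1 and 5.47 to 5.64 on number 2. The number 1 arrays were single sorted in 9 of 10 groups and the number 2 arrays double sorted in 10 of 12. In vitro 3 arrays numbered 1 (Treg at 0 h, Tconv at 0 h and Tconv at 8 h) had a narrow range of values, and Tconv at 0 h number 1 correlated with the rest at 0.787 on average, the lowest of the 42, with 0.910 next. Values without these arrays stand beside the member calls that end without them. The part of other cells' RNA in any result was not tested.

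Cish, an SH2 protein induced by STAT5 that binds interleukin-2 family receptors, rose early and fell back within a day in vivo in both cell types. On the in vivo Treg arrays (number 1, then number 2) Cish stood at 8.74 and 8.64 at 0 h, 10.91 and 10.90 at 2 h, 10.03 and 10.55 at 8 h, 8.75 and 8.91 at 24 h and 9.30 and 9.49 at 72 h. On the in vivo Tconv arrays it stood at 7.99 and 7.36, 10.14 and 9.82, 9.09 and 9.41, 6.91 and 7.26, and 7.73 and 7.39 at the same times. In both cell types the arrays at 2 and 8 h lay above those at 0 h without overlap, and those at 24 h were back near the start. Against 0 h, Cish rose by 2.21 ± 0.23 in Treg (adjusted p = 4.3e-07, background 6.45%) and by 2.31 ± 0.23 in Tconv at 2 h (adjusted p = 2.18e-07, background 3.51%). At 8 h it was higher by 1.59 ± 0.23 in Treg (adjusted p = 5.17e-05, background 9.67%) and by 1.58 ± 0.23 in Tconv (adjusted p = 1.86e-05, background 21%). At 24 h the differences were 0.14 in Treg (background 0.483%) and -0.59 in Tconv (background 2.4%), and at 72 h 0.70 (background 0.0241%) and -0.12 (background 0.29%), all uncalled. Each of the 4 calls at 2 and 8 h was kept without any single array and without the in vivo arrays numbered 1. Between 8 and 24 h Cish fell, by -1.46 ± 0.23 in Treg (adjusted p = 0.000435, background 4.84%) and by -2.16 ± 0.23 in Tconv (adjusted p = 2.32e-07, background 19.4%). The Treg fall was -1.64 and not called on the number 2 arrays alone (adjusted p = 0.0909). The smaller fall of Cish between 2 and 8 h in Tconv (-0.73 ± 0.23, adjusted p = 0.046, background 8.47%) was lost without any 1 of its 4 arrays (-0.89 to -0.57, adjusted p = 0.0806 to 0.342).

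In culture Cish was still above 0 h at 24 h in both cell types. The in vitro Treg arrays gave 8.84 and 8.97 at 0 h, 9.58 and 9.29 at 2 h, 10.51 and 10.16 at 8 h, 10.52 and 10.35 at 24 h and 8.77 and 8.51 at 72 h. The in vitro Tconv arrays gave 7.55 and 7.86, 9.28 and 9.28, 9.18 and 8.76, 9.24 and 8.81, and 7.23 and 7.07. In Treg the arrays at 8 and 24 h were the highest and those at 72 h lay below those at 0 h, while in Tconv all arrays from 2 to 24 h lay above 0 h. In Treg the difference from 0 h was 0.53 ± 0.23 and not called at 2 h (adjusted p = 0.21), then Cish was higher by 1.43 ± 0.23 at 8 h (adjusted p = 0.000202, background 5.61%) and by 1.53 ± 0.23 at 24 h (adjusted p = 0.00013, background 5.95%). In Tconv it was higher by 1.58 ± 0.23 at 2 h, 1.27 ± 0.23 at 8 h and 1.32 ± 0.23 at 24 h (adjusted p = 2.96e-05, 0.000304 and 0.000653, backgrounds 26.3%, 18.9% and 26.8%). With array weights these 3 Tconv calls were lost (adjusted p = 0.169 to 0.592), and without the 3 arrays of narrow range the 8 h difference was 0.90 and not called (adjusted p = 0.0974). From 24 to 72 h Cish fell by -1.80 ± 0.23 in Treg (adjusted p = 4.85e-06, background 4.17%) and by -1.88 ± 0.23 in Tconv (adjusted p = 0.000168, background 0.105%), and neither call depended on a single array. The rise of Cish between 2 and 8 h in Treg (0.90 ± 0.23, adjusted p = 0.0193, background 4.27%) was lost without Treg at 2 h number 2 (0.75, adjusted p = 0.224) and without Treg at 8 h number 1 (0.73, adjusted p = 0.332).

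**Figure D1:**
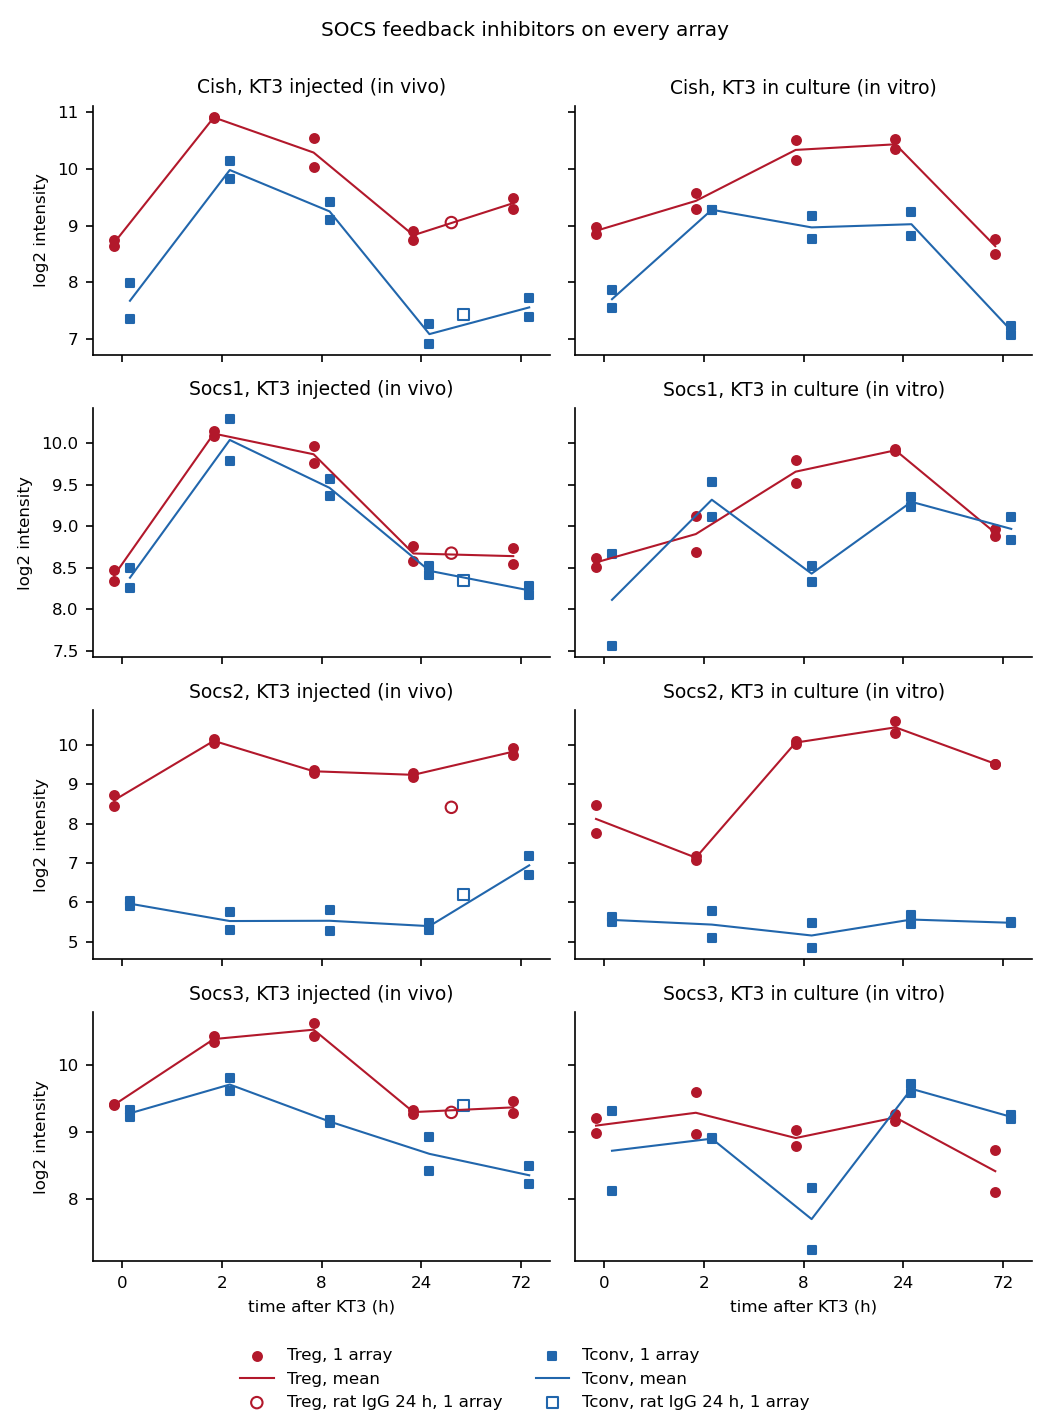
Log2 intensity of the 4 members against time after KT3 (h, evenly spaced), in vivo on the left and in vitro on the right, with 1 point per array, lines through group means (red circles Treg, blue squares Tconv) and open symbols, drawn between 24 and 72 h, for the rat IgG arrays at 24 h. Cish and Socs1 peak at 2 h in vivo, and every Treg array of Socs2 from 8 h on lies above every Tconv array.

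Treg carried more Cish than Tconv from the start. Treg exceeded Tconv in vivo by 1.02 ± 0.23 at 0 h, 0.93 ± 0.23 at 2 h, 1.04 ± 0.23 at 8 h, 1.74 ± 0.23 at 24 h and 1.84 ± 0.23 at 72 h. The adjusted p-values were 0.00779, 0.017, 0.00617, 1.3e-05 and 5.1e-06, with backgrounds of 3.1%, 3.45%, 4.27%, 3.2% and 3.6%. At each of these times the 2 Treg arrays lay above the 2 Tconv arrays, and the calls at 24 and 72 h were kept without any single array. The calls at 0, 2 and 8 h were each lost without some single arrays, in fits that leave 1 array in a group. At 0 h the call was lost without Tconv number 2 (0.70, adjusted p = 0.285) or Treg number 1 (0.97, adjusted p = 0.124). At 2 h it was lost without Tconv number 2 (0.77, adjusted p = 0.15) or either Treg array (0.92 and 0.93, adjusted p = 0.153 and 0.103). At 8 h it was lost without Tconv number 1 (0.88, adjusted p = 0.147) or Treg number 2 (0.78, adjusted p = 0.17). On the number 2 arrays alone these 3 differences were 1.29, 1.08 and 1.14 (adjusted p = 0.127, 0.28 and 0.214). In vitro the difference was 1.21 ± 0.23 at 0 h, 1.37 ± 0.23 at 8 h, 1.41 ± 0.23 at 24 h and 1.49 ± 0.23 at 72 h, all called (adjusted p = 0.00158, 0.000136, 0.00015 and 5.74e-05, backgrounds 11.2%, 23.8%, 21.3% and 10.3%). At 2 h in vitro it was 0.16 ± 0.23 and not called (adjusted p = 0.8). The 0 h call was lost with array weights (adjusted p = 0.833) and without the 3 arrays of narrow range (1.11, adjusted p = 0.057).

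The Cish response differed between the settings at 2 comparisons of 8. In Treg at 2 h the in vivo response exceeded the in vitro response by 1.69 ± 0.32 (adjusted p = 0.00229, background 3.68%). At 24 h in Tconv it was lower in vivo, by -1.91 ± 0.32 (adjusted p = 0.00212, background 1.05%). Both were kept without any single array. With the in vivo arrays numbered 2 and both numbers in vitro they were 1.73 and -1.42, without a call. Number 2 in both settings gave differences of 1.95 and -1.05. The Tconv difference was also lost with array weights (adjusted p = 0.925).

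**Figure D2:**
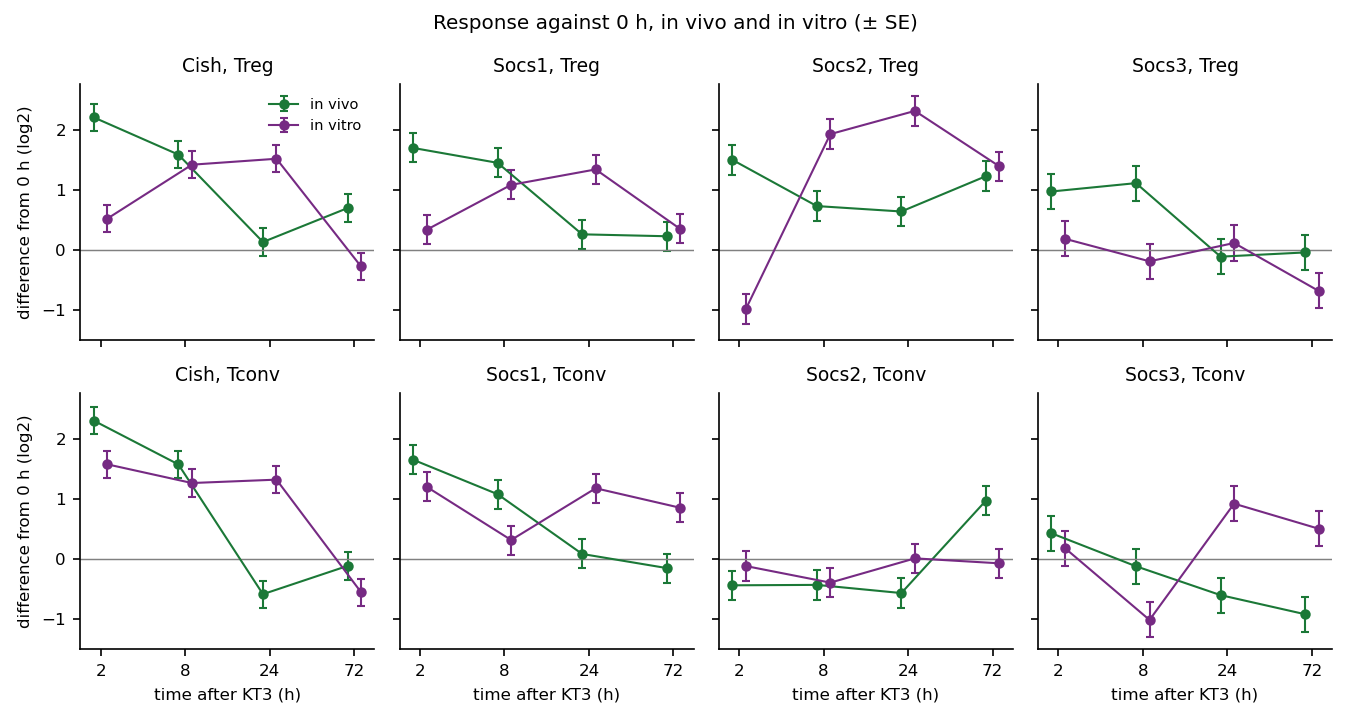
Log2 difference from 0 h (± SE, n = 2 arrays per group) at 2, 8, 24 and 72 h after KT3, in vivo (green) and in vitro (purple), with Treg above and Tconv below. Cish in Treg stands at 2.21 in vivo and 0.53 in vitro at 2 h, and at 0.14 in vivo and 1.53 in vitro at 24 h.

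Socs1, which binds JAK kinases and limits interferon gamma signals, followed Cish in time in vivo and in cultured Treg. It did not follow Cish in cultured Tconv or in the difference between the cell types. In vivo Treg arrays held 8.47 and 8.34 at 0 h, 10.15 and 10.08 at 2 h, 9.76 and 9.97 at 8 h, 8.58 and 8.77 at 24 h and 8.55 and 8.73 at 72 h. In vivo Tconv arrays held 8.50 and 8.26, 10.28 and 9.79, 9.36 and 9.56, 8.52 and 8.41, and 8.28 and 8.17. The 2 and 8 h arrays of both cell types lay clear of the 0 h arrays, and Treg and Tconv overlapped at 0 and 2 h. Socs1 rose at 2 h by 1.71 ± 0.24 in Treg (adjusted p = 3.34e-05) and 1.65 ± 0.24 in Tconv (adjusted p = 6.54e-05). At 8 h it was higher by 1.46 ± 0.24 in Treg (adjusted p = 0.000281) and 1.08 ± 0.24 in Tconv (adjusted p = 0.00186). These calls were kept without any single array. On the number 2 arrays alone the 4 differences were 1.74, 1.53, 1.62 and 1.30, in the order given, and were not called (adjusted p = 0.0843 to 0.33). Between 8 and 24 h Socs1 fell by -1.19 ± 0.24 in Treg (adjusted p = 0.00343) and by -0.996 ± 0.24 in Tconv (adjusted p = 0.00374). The Treg fall was lost without Treg at 24 h number 1 (-1.10, adjusted p = 0.0771) or Treg at 8 h number 2 (-1.09, adjusted p = 0.0566). The Tconv fall was lost without Tconv at 8 h number 2 (-0.90, adjusted p = 0.0517). On the number 2 arrays alone the falls were -1.20 in Treg and -1.15 in Tconv and not called (adjusted p = 0.5 and 0.172).

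In vitro the Treg arrays gave Socs1 values of 8.62 and 8.51 at 0 h, 9.12 and 8.69 at 2 h, 9.80 and 9.52 at 8 h, 9.93 and 9.90 at 24 h and 8.88 and 8.96 at 72 h. The Tconv arrays gave 7.56 and 8.67, 9.11 and 9.53, 8.33 and 8.53, 9.23 and 9.35, and 9.11 and 8.83. In Treg the 8 and 24 h arrays were the highest, whereas the 8 h Tconv arrays lay inside the range of the 0 h pair, which itself spanned more than a log2 unit. In Treg, Socs1 was higher than at 0 h by 1.09 ± 0.24 at 8 h (adjusted p = 0.00581) and 1.35 ± 0.24 at 24 h (adjusted p = 0.000964). The 8 h call was lost without Treg at 0 h number 1 (1.14, adjusted p = 0.0504) or Treg at 8 h number 1 (0.95, adjusted p = 0.15). From 24 to 72 h it fell by -0.99 ± 0.24 (adjusted p = 0.0137), a call lost without any 1 of the 4 arrays (-1.04 to -0.95, adjusted p = 0.0641 to 0.15). In Tconv, the differences from 0 h of 1.20 ± 0.24 at 2 h, 1.18 ± 0.24 at 24 h and 0.85 ± 0.24 at 72 h were called (adjusted p = 0.00123, 0.00289 and 0.033, backgrounds 26.3%, 26.8% and 7.55%). Without Tconv at 0 h number 1 they were 0.65, 0.62 and 0.30, and none was called (adjusted p = 0.0961, 0.219 and 0.903). The 72 h call was also lost without either 72 h array (0.71 and 0.99, adjusted p = 0.252 and 0.0753), and all 3 with array weights (adjusted p = 0.227, 0.592 and 0.899).

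Tconv in vitro showed a dip of Socs1 at 8 h, with -0.89 ± 0.24 between 2 and 8 h (adjusted p = 0.0174, background 9.7%) and 0.86 ± 0.24 between 8 and 24 h (adjusted p = 0.0373, background 4.54%). The fall was lost without Tconv at 2 h number 2 (-0.68, adjusted p = 0.213) or Tconv at 8 h number 1 (-0.79, adjusted p = 0.188), and the rise of Socs1 without any 1 of its 4 arrays (0.77 to 0.96, adjusted p = 0.0574 to 0.389). At 8 h Treg exceeded Tconv by 1.23 ± 0.24 in vitro (adjusted p = 0.000841, background 23.8%). It was the 1 call among the 10 comparisons of Socs1 between the cell types and was kept without any single array. The other 9 differences lay between -0.41 and 0.62. The Socs1 response of Treg at 2 h was larger in vivo than in vitro by 1.37 ± 0.34 (adjusted p = 0.0208), and this was lost without any 1 of 6 of the 8 arrays concerned (1.15 to 1.43, adjusted p = 0.0519 to 0.139) and on the in vivo arrays numbered 2 alone (1.40, adjusted p = 0.558).

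Socs2, an SH2 protein best known for restraining growth hormone receptor signals and a target of STAT5, separated the 2 cell types. In vivo Treg arrays stood at 8.72 and 8.45 at 0 h, 10.15 and 10.04 at 2 h, 9.36 and 9.29 at 8 h, 9.28 and 9.19 at 24 h and 9.73 and 9.92 at 72 h. In vivo Tconv arrays stood at 6.03 and 5.90, 5.75 and 5.31, 5.80 and 5.27, 5.48 and 5.31, and 6.71 and 7.17. Over all times, settings and rat IgG, the 21 Treg arrays ran from 7.08 to 10.59 (median 9.36) and the 21 Tconv arrays from 4.84 to 7.17 (median 5.50), with an overlap only between Treg at 2 h in vitro and Tconv at 72 h in vivo. No detection call was used here, and Socs2 was dim in Tconv, so the size of the differences between the cell types depends on a Tconv level that may be background. Treg exceeded Tconv in vivo by 2.62 ± 0.25 at 0 h, 4.57 ± 0.25 at 2 h, 3.79 ± 0.25 at 8 h, 3.84 ± 0.25 at 24 h and 2.88 ± 0.25 at 72 h (adjusted p from 4.79e-12 to 9.12e-08). In vitro Treg were higher by 2.56 ± 0.25, 1.70 ± 0.25, 4.89 ± 0.25, 4.88 ± 0.25 and 4.03 ± 0.25 at the same times (adjusted p from 9.69e-13 to 5.23e-05, background at 2 h 3.27%). All 10 calls were kept without any single array, and the 5 in vivo ones on the number 2 arrays alone. With array weights the in vitro call at 0 h was lost (adjusted p = 0.0822). With the second Socs2 cluster, described below, the in vitro differences at 0 and 2 h were 0.45 and 0.50. Neither was called (limma, adjusted p = 0.164 and 0.428). Since Socs2 passed the filter through 21 Treg arrays and 1 Tconv array, these p-values describe the separation and are no separate support for it.

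**Figure D3:**
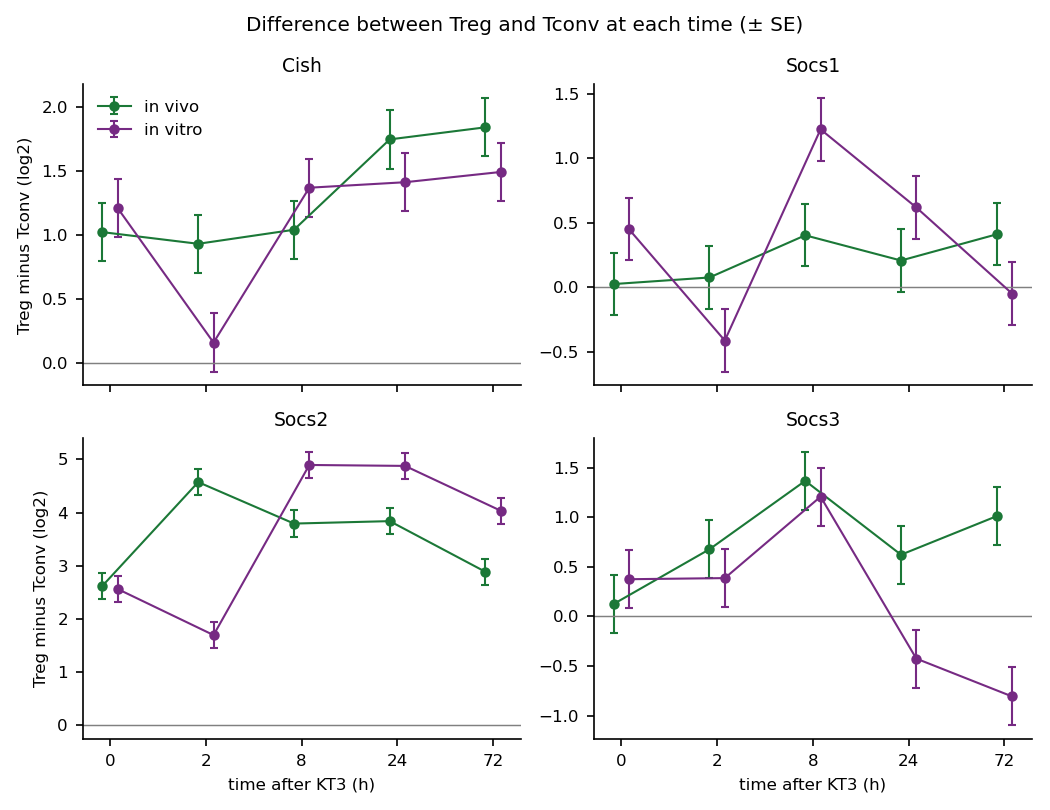
Treg minus Tconv in log2 units (± SE, n = 2 arrays per group) at each time after KT3, in vivo (green) and in vitro (purple), for each member on its own scale. Socs2 lies between 1.70 and 4.89 at every time, Cish above 0.90 except at 2 h in vitro, and Socs1 stands out only at 8 h in vitro.

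Socs2 of Treg changed after KT3 in both settings, in opposite directions at 2 h. No array was made after rat IgG at 2, 8 or 72 h, or after culture without KT3. For every member, an effect of injection or culture cannot be told apart there from one of KT3. In vivo it rose by 1.51 ± 0.25 at 2 h (adjusted p = 0.000181), kept without any single array and 1.59 without a call on the number 2 arrays alone (adjusted p = 0.0988). The differences at 8, 24 and 72 h of 0.74 ± 0.25, 0.65 ± 0.25 and 1.23 ± 0.25 were not called (adjusted p = 0.059, 0.51 and 0.074). The in vitro Treg arrays gave 7.77 and 8.46 at 0 h, 7.08 and 7.18 at 2 h, 10.09 and 10.02 at 8 h, 10.59 and 10.29 at 24 h and 9.52 and 9.51 at 72 h, against 5.62 and 5.49, 5.09 and 5.78, 5.48 and 4.84, 5.69 and 5.44, and 5.46 and 5.50 on the Tconv arrays. Treg at 2 h lay below both 0 h arrays and all later arrays above them, while in Tconv the arrays at 2, 24 and 72 h overlapped with those at 0 h and the 8 h arrays lay just below them. In Treg the difference from 0 h was -0.98 ± 0.25 at 2 h (adjusted p = 0.0145, background 5.64%), 1.94 ± 0.25 at 8 h (adjusted p = 1.08e-05), 2.32 ± 0.25 at 24 h (adjusted p = 1.41e-06) and 1.40 ± 0.25 at 72 h (adjusted p = 0.000297, background 9.11%). The fall at 2 h was lost without Treg at 0 h number 2 (-0.64, adjusted p = 0.15) or either 2 h array (-0.93 and -1.03, adjusted p = 0.115 and 0.0731). That fall was also not called with median centring (-0.86, adjusted p = 0.0612) or in a fit of the in vitro arrays alone (adjusted p = 0.0829). The later calls were kept without any single array. Between 2 and 8 h Socs2 rose by 2.92 ± 0.25 (adjusted p = 2.88e-08). From 24 to 72 h the difference was -0.93 ± 0.25 (adjusted p = 0.0269), lost without any 1 of the 4 arrays (-1.08 to -0.77, adjusted p = 0.058 to 0.353).

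At 2 h the Treg response of Socs2 in vivo exceeded that in vitro by 2.49 ± 0.35 (adjusted p = 7e-05), kept without any single array. The response of Treg exceeded that of Tconv in vitro by 2.33 ± 0.35 at 8 h (adjusted p = 0.00106, background 0.652%) and 2.31 ± 0.35 at 24 h (adjusted p = 0.00103, background 0.491%), both kept without any single array. With array weights these 2 were lost (adjusted p = 1 and 0.727). The 24 h one was also lost in a fit of the in vitro arrays alone (adjusted p = 0.0547) and with the second Socs2 cluster described below (1.38, adjusted p = 0.0768). In vivo at 2 h the response difference was 1.95 ± 0.35 (adjusted p = 0.0167, background 0.0483%) and in vitro at 72 h it was 1.47 ± 0.35 (adjusted p = 0.021, background 1.79%). Each of these was lost without any 1 of 6 of its 8 arrays, with 1.73 to 2.01 (adjusted p = 0.0676 to 0.199) in vivo and 1.12 to 1.49 (adjusted p = 0.0655 to 0.157) in vitro. The in vivo difference was 2.18 on the number 2 arrays alone (adjusted p = 1) and 0.60 with the second cluster (adjusted p = 1). The 72 h in vitro difference was 1.06 without the 3 arrays of narrow range (adjusted p = 0.247), 1.01 with quantile normalization (adjusted p = 0.0854) and 0.78 with the second cluster (adjusted p = 0.398). It was also not called with median centring, array weights or the in vitro arrays alone (adjusted p = 0.054, 1 and 0.114). Socs2 was dim in Tconv and passed the filter mainly through Treg arrays, so a change in Tconv may not show. These response differences between the cell types may hold little more than the Treg change, and their p-values are no separate support. In Tconv the 1 called change of Socs2 over time was 1.54 ± 0.25 from 24 to 72 h in vivo (adjusted p = 0.00191, background 0.861%), which was 1.31 without Tconv at 72 h number 2 (adjusted p = 0.0826), 1.86 on the number 2 arrays alone (adjusted p = 0.223) and 0.49 with the second cluster described next (adjusted p = 0.862).

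Socs2 and Socs3 each had a second transcript cluster under the same symbol. The clusters used were 10394674 for Socs2 and 10393449 for Socs3, and the second ones 10372069 and 10383010. Those of Socs2 share 4 accessions of 7 and 5, and those of Socs3 share 0 of 3 and 1. Across the 42 arrays the 2 clusters correlated with Pearson's r = 0.94 for Socs2 and 0.87 for Socs3, given as a description of arrays that share groups. The second Socs2 cluster ran from 6.54 to 8.72 in Treg and from 5.92 to 6.83 in Tconv, a narrower span than the one used. In Tconv alone the 2 Socs2 clusters correlated with r = 0.36. With the second cluster Treg still exceeded Tconv in vivo at all 5 times and in vitro at 8, 24 and 72 h. At 0 and 2 h in vitro the difference of Socs2 was 0.45 and 0.50 and not called (adjusted p = 0.164 and 0.428). Among the Treg responses of Socs2, those at 8 and 24 h in vitro stayed called. That at 2 h in vivo was 0.69 (adjusted p = 0.107), that at 2 h in vitro -0.51 (adjusted p = 0.289) and that at 72 h in vitro 0.42 (adjusted p = 0.308). The in vivo minus in vitro difference at 2 h in Treg was 1.20 (adjusted p = 0.0547). Which cluster reads Socs2 more faithfully was not tested.

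**Figure D4:**
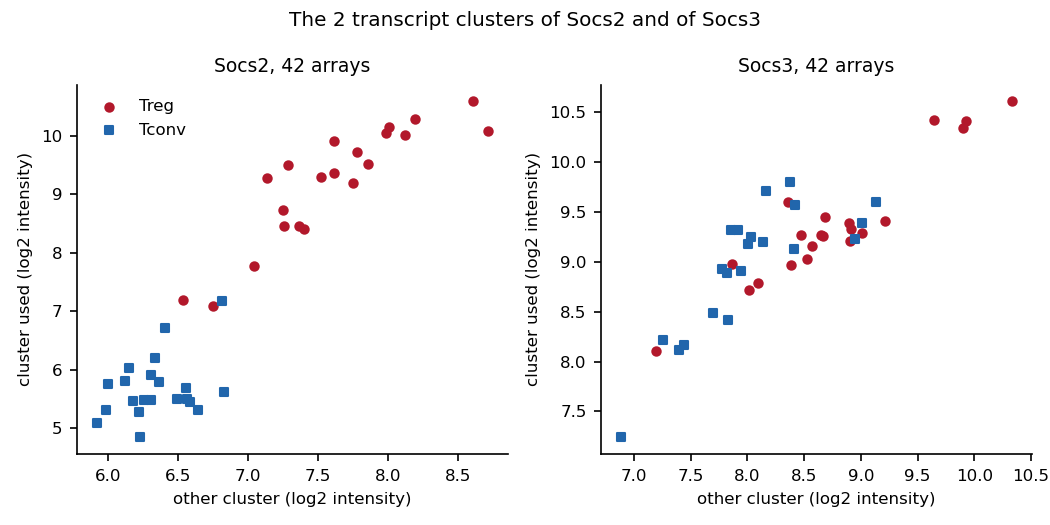
The cluster used against the other cluster of the same symbol, in log2 intensity, with 1 point per array (red circles Treg, blue squares Tconv, 42 arrays), for Socs2 on the left and Socs3 on the right. In Socs2 the Tconv arrays span 5.92 to 6.83 on the other cluster and 4.84 to 7.17 on the one used, while the Treg arrays rise together. In Socs3 the 4 highest Treg arrays are the highest on both clusters.

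Socs3, the inhibitor that binds gp130 and its kinases, rose in vivo in Treg, and in vivo in Tconv no difference from 0 h was called. In vivo Treg arrays held 9.39 and 9.41 at 0 h, 10.42 and 10.34 at 2 h, 10.43 and 10.61 at 8 h, 9.26 and 9.33 at 24 h and 9.27 and 9.45 at 72 h. In vivo Tconv arrays held 9.32 and 9.23, 9.80 and 9.61, 9.18 and 9.13, 8.93 and 8.42, and 8.22 and 8.49. In Treg the 2 and 8 h arrays stood clear above all the others, while the Tconv arrays at 24 and 72 h lay below those at 0 h. Socs3 rose in Treg by 0.98 ± 0.29 at 2 h (adjusted p = 0.0425) and was higher by 1.12 ± 0.29 at 8 h (adjusted p = 0.0144), then fell by -1.23 ± 0.29 between 8 and 24 h (adjusted p = 0.0115). On the number 2 arrays alone these were 0.93, 1.20 and -1.28 without a call (adjusted p = 1, 0.513 and 0.713). Each of the 3 calls was lost without any 1 of its 4 arrays, with 0.94 to 1.02, 1.03 to 1.21 and -1.32 to -1.13 in that order (adjusted p up to 0.307, 0.104 and 0.12). The 2 h call was also lost without either Treg array at 72 h in vivo (0.98, adjusted p = 0.0511 for each). In Tconv in vivo the differences from 0 h were 0.43, -0.12, -0.60 and -0.92, each ± 0.29, and not called (adjusted p = 0.442 or more). At 8 h Treg exceeded Tconv in vivo by 1.37 ± 0.29 (adjusted p = 0.00485), a call lost without Tconv number 2 (1.34, adjusted p = 0.0512) or Treg number 2 (1.27, adjusted p = 0.0639) and on the number 2 arrays alone (1.49, adjusted p = 0.458). With the second Socs3 cluster the Treg differences at 2 and 8 h were 0.86 and 0.94 (adjusted p = 0.167 and 0.0899).

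In vitro the Treg arrays gave Socs3 values of 8.98 and 9.21 at 0 h, 9.60 and 8.97 at 2 h, 8.79 and 9.03 at 8 h, 9.16 and 9.27 at 24 h and 8.11 and 8.72 at 72 h. The Tconv arrays gave 8.12 and 9.32, 8.91 and 8.89, 7.24 and 8.16, 9.57 and 9.71, and 9.19 and 9.25. In Treg the 0 h arrays overlapped with those at 2, 8 and 24 h, and Tconv at 8 h held the lowest value of Socs3 on any array. In Treg no difference from 0 h was called, with values of 0.19, -0.18, 0.12 and -0.68, each ± 0.29 (limma, adjusted p = 0.158 or more). In Tconv, Socs3 was lower by -1.02 ± 0.29 at 8 h (adjusted p = 0.0152, background 18.9%) and higher by 0.92 ± 0.29 at 24 h (adjusted p = 0.0263, background 26.8%). The differences were 1.94 ± 0.29 between these times (adjusted p = 0.000915) and -1.20 ± 0.29 between 2 and 8 h (adjusted p = 0.00802). The 8 h groups overlapped with 0 h in range, and the call was lost without Tconv at 0 h number 2 (-0.42, adjusted p = 0.228) or Tconv at 8 h number 1 (-0.56, adjusted p = 0.226). Without Tconv at 8 h number 1 the later rise was 1.48 (adjusted p = 0.0776) and the 2 to 8 h fall -0.74 (adjusted p = 0.306). That fall was also lost without Tconv at 2 h number 1 (-1.19, adjusted p = 0.0691). With the second Socs3 cluster the Tconv differences from 0 h were -0.46 at 8 h and 0.67 at 24 h (limma, adjusted p = 0.352 and 0.136). The 2 to 8 h fall was then -0.72 and the later rise 1.13, neither called (adjusted p = 0.225 and 0.0588). The 8 and 24 h calls were lost with array weights (adjusted p = 0.676 and 0.65) and in a fit of the in vitro arrays alone (adjusted p = 0.0937 and 0.106). With quantile normalization the 24 h difference was 0.37 (adjusted p = 0.229). The 24 h call was also lost without Tconv at 0 h number 1 (0.32, adjusted p = 0.719) or either 24 h array (0.99 and 0.85, adjusted p = 0.1 and 0.103). Treg exceeded Tconv at 8 h in vitro by 1.21 ± 0.29 (adjusted p = 0.00503), lost without Tconv number 1 (0.75, adjusted p = 0.227) or Treg number 2 (1.09, adjusted p = 0.0574). No response difference of Socs3 between cell types or settings was called (limma, adjusted p = 0.0742 or more).

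Rat IgG, injected as a control antibody, was measured at 24 h on 1 array per cell type. Cish stood at 9.05 in Treg and 7.44 in Tconv, Socs1 at 8.68 and 8.34, Socs2 at 8.41 and 6.20, and Socs3 at 9.29 and 9.39. Of 8 member comparisons of rat IgG with 0 h, limma called 0, with 0 at an unadjusted p under 0.05, and 0 of 12425 genes were called in either cell type (background 0%). KT3 at 24 h against rat IgG gave 0 calls of 8 (backgrounds 0.274% in Treg and 1.47% in Tconv), with 2 at an unadjusted p under 0.05, both of Socs2. Socs2 differed there by 0.82 ± 0.30 in Treg (adjusted p = 0.28) and by -0.80 ± 0.30 in Tconv (adjusted p = 0.38). The fit assumes that a group with 1 rat IgG array has the same spread as the groups with 2.

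The order of group means over the 22 groups differed between members. Cish was highest in Treg at 2 h in vivo (10.91) and lowest in Tconv at 24 h in vivo (7.09), and 14 of its 21 pairs of neighbours in that order overlapped in their arrays. Socs1 ran from 10.11 in Treg at 2 h in vivo to 8.12 in Tconv at 0 h in vitro, and 18 of 21 neighbouring pairs overlapped. Socs2 ran from 10.44 in Treg at 24 h in vitro to 5.16 in Tconv at 8 h in vitro, with 11 Treg groups ahead of all 11 Tconv groups and 10 of 21 pairs overlapping. Socs3 ran from 10.52 in Treg at 8 h in vivo to 7.70 in Tconv at 8 h in vitro, with 16 of 21 pairs overlapping. Over the 20 group means of 0 h and KT3, Cish and Socs1 correlated with Pearson's r = 0.81 (0.94 over the 10 Treg means and 0.77 over the 10 Tconv means), Socs1 and Socs3 with 0.62 and Socs2 and Socs3 with 0.35, as descriptions of means that share arrays.

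Among all tested genes, those most like Cish over the 20 means were Xbp1, a transcription factor of the unfolded protein response (r = 0.93), Nt5dc3 (0.92), Nabp1, a single-stranded DNA binding protein (0.89), and the small nucleolar RNAs Snora75 (0.89) and Snord37 (0.88). Most like Socs1 were Myc, a driver of growth (0.89), Bcl3, a partner of NF-kappa B (0.88), the cytokine Lif (0.87), Xbp1 (0.86) and Naf1, an assembly factor of small RNA particles (0.86). Most like Socs2 were Ncoa7 (0.96), the actin-binding Coro2a (0.95), the Wnt secretion factor Wls (0.95), Mdfic (0.95) and Gpr52 (0.94). For Socs3 likeness was lower, with Sbno2 (0.78), Fcrl5 (0.76), Notch1, a receptor of cell fate (0.75), Vcam1, an adhesion molecule (0.75) and Pgs1 (0.74).

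The other SOCS genes, Socs4, Socs5, Socs6 and Socs7, are regarded as less cytokine-inducible. Of 58 comparisons each, Socs4 passed the test as higher in 3, Socs5 in 5, Socs6 in 1 and Socs7 in 2, and Socs5 alone as lower, in 1. Cish passed as higher in 20 and lower in 6, Socs1 in 12 and 4, Socs2 in 21 and 2, and Socs3 in 6 and 3. The share of all genes called in either direction ran from 0% to 26.8% between these comparisons, which share arrays. No such count was made for all genes, so whether these counts are unusual was not tested. Socs5, which restrains growth factor and interleukin-4 receptor signals, rose in Treg at 2 h in vitro by 1.30 ± 0.22 (adjusted p = 0.000336), with 9.95 and 9.66 at 2 h against 8.35 and 8.65 at 0 h. At that time Treg exceeded Tconv by 1.27 ± 0.22 (adjusted p = 0.000628). The 2 h arrays of Treg lay above all other in vitro arrays of Socs5, and both calls were kept without any single array. The Socs5 response of Treg at 2 h was lower in vivo than in vitro by -1.42 ± 0.32 (adjusted p = 0.00883). It was lost without Treg in vitro at 0 h number 1 (-1.26, adjusted p = 0.0631), Treg in vitro at 2 h number 1 (-1.27, adjusted p = 0.0568) or Treg in vivo at 2 h number 1 (-1.36, adjusted p = 0.0567). Socs4 was higher in Treg than in Tconv at 24 h in vitro by 1.97 ± 0.49 (adjusted p = 0.00871), with 8.75 and 8.50 against 6.19 and 7.11. It was lost without Tconv number 1 (1.51, adjusted p = 0.16) or Treg number 1 (1.85, adjusted p = 0.1).

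Of 15 listed cytokines upstream of the members 8 were tested and 7 were dim. At 2 h, 3 of the 8 rose in Treg (5.04% of all genes rose), with a list median of 0.21 against -0.06 over all genes and with Lif, an interleukin-6 family cytokine, at 4.19 ± 0.37 (adjusted p = 3.99e-08). The others were Osm at 1.27 ± 0.19 (adjusted p = 6.73e-05) and Il10 at 1.12 ± 0.29 (adjusted p = 0.0144). Il10 was lost without Treg at 0 h number 1 (0.73, adjusted p = 0.355) or either 2 h array (1.08 and 1.16, adjusted p = 0.167 and 0.0627). In Tconv 4 of 8 rose (3.04% of all genes), with a list median of 1.35 against -0.05 over all genes. Il2, the growth factor of T cells, was higher by 2.95 ± 0.27 (adjusted p = 6.91e-08), Lif by 2.43 ± 0.37 (adjusted p = 0.000102), and Il21, a helper cytokine, by 2.25 ± 0.20 (adjusted p = 3.9e-08). Between the cell types at 2 h, 4 of 8 were lower in Treg (0.515% of all genes) and 2 higher (2.94%). Il2 differed by -2.90 ± 0.27, Il21 by -2.28 ± 0.20 and Ifng, which encodes interferon gamma, by -1.87 ± 0.32 (adjusted p = 5.85e-08, 2.24e-08 and 0.000414), and the count of 4 was the same without any single array. On the number 2 arrays alone 1 of 8 rose in Treg and 2 of 8 in Tconv.

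Of 22 listed receptor chains 17 were tested, and 7 of 17 were higher in Treg at 0 h in vivo (2.58% of all genes), with a median of 0.78 against 0.00. Il2ra and Il2rb, the alpha and beta chains of the interleukin-2 receptor, were higher by 4.83 ± 0.30 and 2.74 ± 0.25 (adjusted p = 1.88e-10 and 4.05e-08). Ifngr1, an interferon gamma receptor chain, was higher by 1.39 ± 0.35 (adjusted p = 0.0245), lost without any 1 of its 4 arrays (1.29 to 1.49, adjusted p = 0.0918 to 0.281). The count was 2 without Tconv number 2, without Treg number 1 or on the number 2 arrays alone. After 2 h in vivo 4 of 17 rose in Treg (5.04% of all genes), led by Il12rb2, through which interleukin-12 signals, at 2.48 ± 0.49 (adjusted p = 0.00151). It was lost without Treg at 2 h number 1 (2.12, adjusted p = 0.0746), and without that array 1 chain rose. In Tconv Il2ra was the 1 chain of 17 that rose (3.04% of all genes), by 4.56 ± 0.30 (adjusted p = 3.47e-10). At 8 h in vitro 13 of 17 were higher in Treg than in Tconv, in a comparison where 17.2% of all genes were, and 8 were without Tconv at 8 h number 1.

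Of the JAK kinases and STAT factors 9 were tested. At 2 h in vivo Stat5a rose by 1.18 ± 0.17 in Treg (adjusted p = 2.98e-05) and 1.19 ± 0.17 in Tconv (adjusted p = 3.41e-05). Stat3, which relays interleukin-6 family signals, was higher by 0.89 ± 0.23 in each (adjusted p = 0.0172 in Treg and 0.0277 in Tconv), a call lost without any 1 of the 4 arrays (0.85 to 0.92 in Treg and 0.80 to 0.97 in Tconv, adjusted p = 0.0835 to 0.138 and 0.0773 to 0.273). These made 2 of 9 in each cell type (5.04% of all genes were higher in Treg and 3.04% in Tconv). In Treg at 8 h in vitro 5 of 9 rose (4.52% of all genes), with a median of 1.34 against 0.07 over all genes, and 3 without Treg at 0 h number 1 or either 8 h array. Among them were Stat2 at 2.58 ± 0.30 (adjusted p = 3.12e-06) and Stat5a at 1.59 ± 0.17 (adjusted p = 8.02e-07), both kept without any single array. Jak2 was higher there by 1.91 ± 0.50 (adjusted p = 0.0213), lost without Treg at 0 h number 1 (1.29, adjusted p = 0.505) or either 8 h array (1.85 and 1.97, adjusted p = 0.207 and 0.0829). Of the 6 tested partners of the SOCS box, Cul2, a cullin scaffold, was the 1 that passed in Treg at 2 h in vitro, where 4.02% of all genes were higher (1.73 ± 0.45, adjusted p = 0.0175), lost without Treg at 0 h number 1 (1.13, adjusted p = 0.443) or either 2 h array (1.70 and 1.76, adjusted p = 0.112 and 0.101).

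Among 12 other inhibitors of this pathway, Dusp4, a phosphatase of MAP kinases, was the 1 higher in Treg at 0 h in vivo, where 2.58% of all genes were (2.43 ± 0.26, adjusted p = 6.9e-07) and was kept without any single array. At 8 h in vitro in Treg, Usp18, an inhibitor of interferon receptor signals, was higher by 2.17 ± 0.47 (adjusted p = 0.00436), lost without Treg at 0 h number 1 (2.13, adjusted p = 0.0607) or Treg at 8 h number 2 (1.98, adjusted p = 0.0544). Dusp4 was higher there by 1.05 ± 0.26 (adjusted p = 0.015), lost without Treg at 0 h number 1 (0.84, adjusted p = 0.305) or Treg at 8 h number 1 (0.90, adjusted p = 0.26). These were 2 of the 12, in a comparison where 4.52% of all genes were higher.

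Of 17 STAT5 targets other than the members, 8 rose in Treg at 2 h in vivo (5.04% of all genes), with a median of 0.81 against -0.06 over all genes, and 7 in Tconv (3.04%), with a median of 0.85 against -0.05. In Treg these were led by Lif, which also stands among the ligands, Myc at 3.14 ± 0.45 (adjusted p = 3.98e-05) and Xbp1 at 2.05 ± 0.20 (adjusted p = 1.91e-07). In Tconv they were led by Il2ra, which also stands among the receptors, Myc at 2.78 ± 0.45 (adjusted p = 0.000262) and Gzmb, a cytotoxic protease, at 2.47 ± 0.34 (adjusted p = 2.72e-05). On the number 2 arrays alone 4 rose in Treg and 1 in Tconv. In vitro 10 of 17 rose in Treg at 8 h (median 1.17 against 0.07) (4.52% of all genes) and 10 at 24 h (median 0.89 against 0.07, 5.01% of all genes). Among them were Gzmb at 2.23 ± 0.34 and 3.56 ± 0.34 (adjusted p = 9.21e-05 and 4.02e-07) and the survival factor Bcl2l1 at 1.81 ± 0.26 and 1.84 ± 0.26 (adjusted p = 5.45e-05 and 7.37e-05). At 8 h 4 of 17 rose without Treg at 0 h number 1 or Treg at 8 h number 1, and at 24 h 4 did without Treg at 0 h number 1.

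Interferon targets rose in cultured Treg at 8 h. Socs1 was higher there at 8 h and also at 24 h, and a link between this list and Socs1 was not tested. Of the 13 tested, 10 rose (4.52% of all genes), with a median of 2.43 against 0.07, and 8 to 11 did without single arrays. The chemokine Cxcl10 was higher by 4.60 ± 0.51, and the antiviral genes Ifit3 and Ifit1 by 4.50 ± 0.63 and 4.18 ± 0.57 (adjusted p = 1.5e-06, 3.57e-05 and 2.63e-05), each kept without any single array. In vivo at 2 h, when Socs1 peaked, 2 of 13 rose in Treg (5.04% of all genes), with Cxcl10 at 3.32 ± 0.51 (adjusted p = 7.81e-05) and Irf1, an interferon-induced transcription factor, at 1.20 ± 0.31 (adjusted p = 0.0152). The list median was -0.01 against -0.06. Irf1 was lost without Treg at 0 h number 2 (0.95, adjusted p = 0.242) or either 2 h array (1.18 and 1.22, adjusted p = 0.157 and 0.0724). At 8 h in vitro 11 of 13 were higher in Treg than in Tconv (17.2% of all genes), with a median of 2.24 against 0.02 and Gbp3, an interferon-induced GTPase, at 4.28 ± 0.35 (adjusted p = 5.65e-09). Without Tconv at 8 h number 1 the count was 5.

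Of 9 tested STAT3 targets other than the members, 4 rose at 2 h in vivo in each cell type (5.04% of all genes in Treg, 3.04% in Tconv), with medians of 1.09 in Treg and 1.69 in Tconv. In Treg, Batf, a transcription factor of activated T cells, was higher by 1.82 ± 0.29 (adjusted p = 0.000163) and Bcl3 by 1.54 ± 0.20 (adjusted p = 9.17e-06). In Tconv Bcl3 was higher by 1.74 ± 0.20 (adjusted p = 2e-06), next to Il21. Socs3 of Treg exceeded that of Tconv at 8 h in vitro, and a link between this list and Socs3 was not tested. At that time 6 of 9 were higher in Treg (17.2% of all genes). Among them were Ahr, the aryl hydrocarbon receptor, at 1.71 ± 0.22 (adjusted p = 3.55e-06) and Maf, a transcription factor, at 1.56 ± 0.35 (adjusted p = 0.00305). Without Tconv at 8 h number 1 or Treg at 8 h number 1 the count was 2. At 2 h in vivo the counts on the number 2 arrays alone were 1 in Treg and 2 in Tconv.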

How the data were processed

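Total RNA of sorted cells was amplified and hybridised to Affymetrix ST1.0 gene arrays, per the series' design text. The authors normalized by RMA in GenePattern, and the submitters' processing notes name Affymetrix Power Tools, with no versions given in the sources used here. The deposited values are intensity on a linear scale, 1 per transcript cluster, and log2 was taken of these deposited values. Of 24922 clusters, 21425 had 1 symbol, 1399 several and 2098 none. Of 19752 symbols, 921 had several clusters and the highest mean was used. Genes that exceeded the median of their array on 2 or more arrays were tested, which left 12425 and dropped 7327 dim ones. limma 3.58.1 in R 4.3.3 fitted 22 group means over 42 arrays (20 residual degrees of freedom, eBayes), and the script was checked on simulated data. Named genes were the members, the other SOCS genes and, in each list, those with the largest called differences, and the genes most like a member by Pearson's r. The members and lists were chosen with earlier results of these data known. The number of arrays limits the precision. Alternatives covered scaling, filter, offset, array weights, replicate number as a block, single arrays and clusters.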

Additional observations from a re-analysis of the deposited data

Results flagged for a closer look

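These 8 results differed between cell types or settings by the limma test of the response difference itself (adjusted over all tested genes). Cish responded less in vivo than in vitro in Tconv at 24 h (-1.91, adjusted p = 0.00212) and more in vivo in Treg at 2 h (1.69, adjusted p = 0.00229). Socs1 responded more in vivo in Treg at 2 h (1.37, adjusted p = 0.0208), as did Socs2 (2.49, adjusted p = 7e-05). The Socs2 response of Treg exceeded that of Tconv by 1.95 at 2 h in vivo (adjusted p = 0.0167), and in vitro by 2.33 at 8 h (adjusted p = 0.00106), 2.31 at 24 h (adjusted p = 0.00103) and 1.47 at 72 h (adjusted p = 0.021). With the second Socs2 cluster the differences at 2 h in vivo and at 24 and 72 h in vitro were 0.60, 1.38 and 0.78 and not called (adjusted p = 1, 0.0768 and 0.398). The Socs2 difference between settings was then 1.20 and not called (adjusted p = 0.0547). Array weights ended the Cish call in Tconv and the Socs2 calls in vitro. The calls of Socs1 and of Socs2 at 2 h in vivo and 72 h in vitro were each lost without any 1 of 6 of their 8 arrays. The limits of filter and dimness in Tconv given above hold for the Socs2 differences between the cell types.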

How the results depend on the processing

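Of 232 member comparisons 74 were called, 27 of them under every setting tried, 47 were lost under some setting, 41 others were gained under some, and 0 reversed. The share of all genes called ran from 0% to 26.8% between comparisons. Leaving out single arrays gave 5 to 8 calls against 0 h for Treg in vivo, 7 to 8 for Treg in vitro, 4 to 4 for Tconv in vivo and 4 to 10 for Tconv in vitro. Between neighbouring times it gave 1 to 3 and 3 to 7 for Treg and 2 to 5 and 1 to 5 for Tconv, in vivo and then in vitro. Treg against Tconv gave 9 to 12 in vivo and 10 to 15 in vitro, response differences between the cell types 0 to 1 and 2 to 8, response differences between the settings 2 to 5 for Treg and 1 to 6 for Tconv, and rat IgG 0 to 0. Deviations of same-numbered arrays correlated above 0.1 in 32 of 45 pairs of groups in vivo (median r = 0.30, lowest -0.17) and in 28 of 45 in vitro (median 0.22, lowest -0.45), not in all, so the arrays were not treated as paired, although the number goes with sex and age in culture and with sorting in vivo. The replicate block ended 0 member calls and added 6, and the calls between settings were then 5 for Treg and 2 for Tconv. The calls added were Socs2 in Treg at 72 h in vivo (1.23), Socs3 between the cell types at 72 h (1.01 in vivo and -0.81 in vitro) and, between settings at 24 h, Socs3 in Tconv (-1.52) and Cish and Socs2 in Treg (-1.39 and -1.68). Quantile normalization gave 5 for Treg there and 2 for the cell type responses in vivo, and an offset of 32 gave 6 for Treg. Arrays of the same setting alone gave 7 between neighbouring times for Tconv and 2 for the cell type responses in vivo, 5 against 0 h and 2 between neighbouring times for Tconv in vitro, 2 between neighbouring times for Treg in vitro and 1 for the responses in vitro. Array weights gave 0 against 0 h for Tconv in vitro, 2 and 0 for the cell type responses in vivo and in vitro, and 0 between settings for Tconv. Of 3 alternatives chosen after seeing the data, the other clusters gave 4 against 0 h for Treg in vivo, 3 between neighbouring times for Tconv in vitro and 0 and 1 for the cell type responses. The in vivo arrays of number 2 gave 2 and 2 against 0 h for Treg and Tconv, 0 and 1 between neighbouring times, 7 for Treg against Tconv, 0 for the cell type responses, and 1 and 0 between settings. Leaving out the 3 arrays of narrow range gave 3 against 0 h and 3 between neighbouring times for Tconv in vitro. The cause was not tested in any of these.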
